A study of Mus musculus with 2 samples.

Results

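Adherent G2/M cells were the 1010 GL261 cells, of 5051 kept cells of the adherent culture, in which the largest share of transcripts came from 8 genes of late cell cycle. The genes were Ube2c, Cdc20, Plk1, Aurka, Cenpf, Aspm, Ccnb1 and Top2a. Each cell was scored by the UMIs (counted transcript molecules) of these genes as a percent of its UMIs on all genes left after mitochondrial and ribosomal protein genes were removed. Members were chosen by this score, as its top 20%, and were compared with the 2526 cells of its bottom 50%, called low-score cells below. The 1515 cells between them were set apart. GL261 is a mouse glioma line of C57BL/6 origin, labelled as an astrocytoma, and both cultures of the study were measured by scRNA-Seq of 3′ transcript ends. The adherent cells grew in DMEM with 10% fetal bovine serum and were detached with trypsin. The neurosphere cells grew for 12 days as floating spheres, with 20 ng/ml EGF, 20 ng/ml FGF and the B-27 supplement. The paper describes these as added to the culture medium and does not say that serum was left out. Spheres were broken up by pipetting, and cells of both cultures were frozen in medium with DMSO. Each culture was 1 library, with no replicate, so no difference was tested and cells were not treated as replicates.

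The adherent library held 5764 cells and 68531063 UMIs. Of these cells, 5051 had at least 1000 UMIs and at least 1250 genes on the genes left, with 46290996 UMIs between them. The libraries shared 12 cell barcodes, 0.208% of the adherent ones, and 3 members were among these. Levels are given as CPM, the UMIs of a gene per 1000000 UMIs on the genes left, summed over the cells of a set. All intervals are 95% intervals that cover counting error only. Because the members were selected on expression in the same cells, every gene value below is a description.

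A dividing cell copies its DNA in S phase, checks and prepares it in G2 phase and separates the copies in M phase. Entry into mitosis is driven by the kinase Cdk1 bound to a B-type cyclin, and exit by the anaphase-promoting complex, a ubiquitin ligase that marks cyclins and securin for destruction. Many genes of these steps are transcribed late in the cycle, under the DREAM and MuvB complexes, B-Myb and Foxm1, which act through short promoter elements. Their transcripts are therefore in common use as marks of cycling cells in tumours, glioma among them.

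Members carried many more of the score's transcripts than other cells, without a gap in between. The median score was 0.416% of UMIs in members, 0.177% in the cells between and 0.0377% in low-score cells. The lowest member and the highest cell outside both held 0.287%, and the score ran on to 0.959%. Near this threshold lay 127 members within 10% above it and 168 other cells within 10% below it. The members are a range of the score by the way they were chosen, and whether they form a separate type was not tested. The median member held 46 UMIs of the 8 genes, against 15 in the cells between and 3 in low-score cells. All 8 genes were seen in 317 members, 31.4%, and at least 6 of them in 915, 90.6%. In low-score cells at least 6 were seen in 40 cells, 1.58%.

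**Figure D1:**
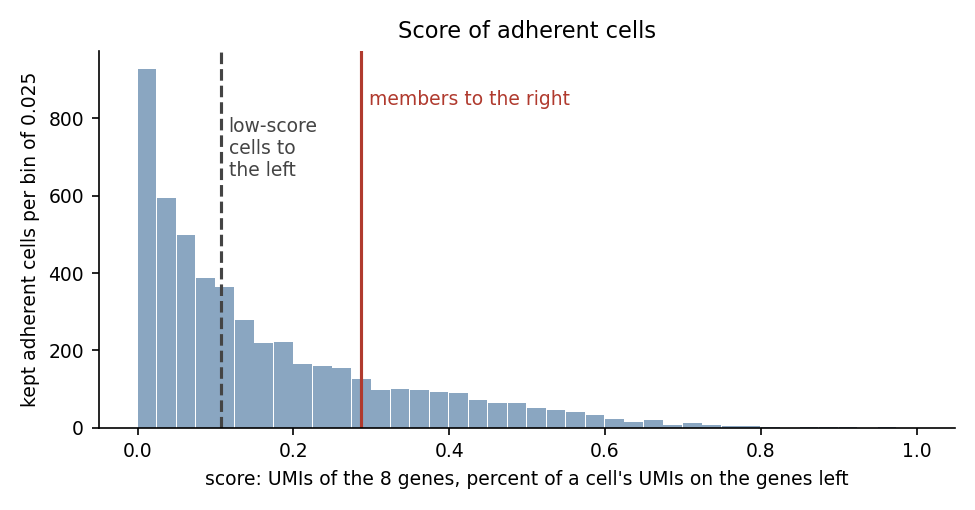
Histogram of the score over the 5051 kept adherent cells, with the score in percent of a cell's UMIs on the horizontal axis and cells per bin on the vertical axis. The solid line marks the lowest member at 0.287% and the dashed line the upper end of the low-score cells at 0.107%, and the counts fall smoothly across both.

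Ube2c, the ubiquitin-conjugating enzyme of the anaphase-promoting complex, gave 46.2% of the members' score UMIs. Its level was 2019 CPM in members, 836 CPM in the cells between and 196 CPM in low-score cells. The topoisomerase Top2a, which untangles sister chromatids, followed with 709 CPM against 92.1 CPM. Cenpf, a large protein of the kinetochore and nuclear matrix, stood at 502 CPM against 31.1 CPM, the widest ratio of the 8 genes, with a log2 ratio of 4.01 (3.89 to 4.14). Cdc20, which activates the anaphase-promoting complex, had the narrowest, at 482 CPM against 76.0 CPM and a log2 ratio of 2.67 (2.58 to 2.75). Cyclin B1 (Ccnb1) reached 250 CPM against 26.5 CPM. Among the rarer transcripts, the mitotic kinase Aurka stood at 185 CPM against 16.2 CPM and the kinase Plk1 at 152 CPM against 16.5 CPM. Aspm, a protein of the spindle poles, was the least abundant, at 70.0 CPM against 5.05 CPM.

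Each gene was also read in cells chosen by the other 7, so that it took no part in choosing them. All 8 stayed higher, by 4.15-fold for Cdc20 up to 12.5-fold for Cenpf. Ube2c was 5.87-fold higher in such cells, with a log2 ratio of 2.55 (2.51 to 2.60). Leaving out Ube2c kept 842 of the 1010 members, 83.4%, the fewest of any gene, while leaving out Aspm kept 997.

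Members were deeper cells. Their median was 10714 UMIs and 3494 genes on the genes left, against 7329 UMIs and 2798 genes in low-score cells, a ratio of 1.46 in UMIs and 1.25 in genes. With each cell thinned to 5000 UMIs, the median was 2233 genes in members and 2231 in low-score cells, so the difference in genes was not seen at equal depth. Thinning left out 59 members and 399 low-score cells as too shallow. Mitochondrial transcripts made up a median 1.95% of UMIs in members and 2.10% in low-score cells, and ribosomal protein transcripts 29.5% and 29.9%. Cells over the 95th percentile of UMIs, where doublets would gather, were 9.50% of members and 1.70% of low-score cells. With these cells left out before members were chosen, 209 genes were at least 2-fold higher and 75 lower, against 198 and 78 with them, as counted below.

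Shares of cells with a UMI were compared at equal depth. After thinning to 5000 UMIs, Ube2c was seen in 99.9% of members and in 55.8% of low-score cells (53.7% to 57.9%). Plk1 was seen in 52.2% (48.9% to 55.4%) and 7.33% (6.26% to 8.53%), and Aspm in 28.9% (26.1% to 31.9%) and 2.44% (1.83% to 3.19%). Without thinning, the shares were 99.7% and 63.2% for Ube2c, 79.4% and 10.9% for Plk1 and 50% and 3.68% for Aspm, at median depths of 10714 and 7329 UMIs. Free RNA in the droplets adds UMIs to cells that do not express a gene, and its part in the low-score shares cannot be told apart from low expression. The make-up of the score's UMIs differed between the sets. Cenpf gave 11.5% of them in members and 6.76% in low-score cells, while Top2a gave 16.2% and 20.0%.

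Across 10800 genes with at least 100 UMIs over both sets, 198 were at least 2-fold higher in members (1.83%) and 78 at least 2-fold lower (0.722%). The median log2 ratio of all these genes was -0.08. Of the higher genes, 86 were at least 4-fold higher and 13 at least 8-fold, and together they made up 2.53% of the members' UMIs against 0.673% in low-score cells. Of the lower genes, 1 was at least 4-fold lower. The lower genes were sparse, with a median of 167 UMIs over both sets against 749 for all genes measured, and 7 of them had 500 UMIs or more. Counted as UMIs per cell in place of CPM, 456 genes were higher and 8 lower, so that higher genes were 98.3% of those past 2-fold against 71.7% in CPM. This scale shifts the log2 ratio of every gene by the same amount and put the median of all genes at 0.45.

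The genes of mitosis were grouped into 8 lists by role, which held 123 genes besides the score genes. Of these, 84 were at least 2-fold higher in members, none was 2-fold lower, and the median log2 ratio was 1.62, against -0.08 over all genes. Against all other cells in place of low-score cells, 68 of the 123 were at least 2-fold higher. The other 106 of the 190 higher genes outside the score were in none of these lists. Kinesins, passenger proteins and spindle factors stood highest, while the anaphase-promoting complex itself stood close to the level of all genes.

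Among 11 cyclins, partners and phosphatases of Cdk1, 9 were at least 2-fold higher and the median log2 ratio was 1.77. Cdk1 itself stood at 907 CPM in members against 187 CPM in low-score cells, a log2 ratio of 2.27 (2.22 to 2.33). Its small binding subunit Cks2 was more abundant, at 1144 CPM against 335 CPM. The cyclins Ccna2 and Ccnb2 reached 142 CPM against 28.3 CPM and 181 CPM against 67.9 CPM. Ccnf, an F-box cyclin that takes part in a ubiquitin ligase, had the largest ratio of the list, with a log2 ratio of 3.63 (3.23 to 4.04). The phosphatases Cdc25b and Cdc25c, which switch Cdk1 on, had log2 ratios of 2.97 and 2.63, and Wee1, a kinase that holds it off, 1.07 (0.87 to 1.27). Wee1 was under 2-fold in 3 of 23 alternative settings. Pkmyt1, another kinase that holds Cdk1 off, was under 2-fold at 0.38 (0.03 to 0.73).

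Kinases of mitosis and the spindle assembly checkpoint, which delays anaphase until every chromosome is attached, were higher at 11 of 12 genes, with a median log2 ratio of 1.50. Against all other cells, 5 of 12 were. Aurkb, the kinase that corrects faulty attachments, stood at 116 CPM against 20.4 CPM. The checkpoint genes Bub1b and Bub1 had log2 ratios of 2.63 and 1.62, and Mad2l1 had 1.11 (1.00 to 1.23). Bub3 was the most abundant of the list, at 375 CPM against 144 CPM.

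The anaphase-promoting complex and its regulators were higher at 4 of 19 genes, and the list's median log2 ratio was 0.12. The higher ones were regulators. They were the inhibitor Fbxo5 (log2 ratio 2.20), the late activator Fzr1 (2.14), separase Espl1 (2.17), which cuts cohesin, and securin Pttg1 (1.01), which holds separase inactive. Securin stood at 699 CPM against 346 CPM, at the edge of the 2-fold limit, and was under it in 6 of 23 alternative settings. The subunits Anapc11 and Cdc26 had log2 ratios of 0.11 and -0.02. Ube2s, the enzyme that lengthens the ubiquitin chains, was abundant in both sets, at 1480 CPM against 1126 CPM.

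Of 23 genes of the kinetochore and centromere, 14 were at least 2-fold higher and all 23 had a log2 ratio above 0, with a median of 1.30. Against all other cells, 11 were at least 2-fold higher. Cenpe, a motor that carries chromosomes to the spindle equator, stood at 194 CPM against 22.6 CPM. Sgo2a, which protects cohesin at centromeres, had a log2 ratio of 2.79 (2.61 to 2.96). The microtubule-binding Ndc80 complex was higher at Ndc80 (2.19), Nuf2 (1.83) and Spc25 (2.53), while its subunit Spc24 reached 0.90. The centromere histone Cenpa stood at 897 CPM against 305 CPM. Cenpw and Zwint, also of the kinetochore, were close to even at 0.30 and 0.04.

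The chromosomal passenger complex and the machinery of cytokinesis were higher at 13 of 14 genes, with a median log2 ratio of 2.25. Survivin (Birc5) stood at 795 CPM against 235 CPM, Cdca8 (borealin) at 364 CPM against 79.6 CPM and Incenp at 88.3 CPM against 21.5 CPM. Prc1, which bundles microtubules in the central spindle, reached 457 CPM against 91.5 CPM. Cep55 of the midbody had a log2 ratio of 2.69 (2.42 to 2.98). The exception was Tex14, at 240.0 CPM against 279 CPM.

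All 13 kinesins of mitosis were at least 2-fold higher, with a median log2 ratio of 2.55, the largest of any list outside the score. Their transcripts summed to 867 CPM in members and 160 CPM in low-score cells. Kifc1, which focuses spindle poles, had a log2 ratio of 3.03, and Kif11, which pushes the poles apart, 2.72. Kif18b had 2.94 and Kif20a, which works in cytokinesis, 2.39. Kif15 had the smallest, at 1.30 (1.13 to 1.47), and was under 2-fold in 2 of 23 alternative settings.

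Spindle assembly factors were higher at 18 of 19 genes, with a median log2 ratio of 2.30. Fam83d, which brings a casein kinase to the spindle, had the largest ratio of all genes named here, with 32.3 CPM against 1.11 CPM and a log2 ratio of 4.86 (4.24 to 5.55). Nusap1, which bundles microtubules near chromosomes, stood at 253 CPM against 15.8 CPM. Ckap2l and Depdc1a had log2 ratios of 2.87 and 2.85. Hmmr was the most abundant, at 430 CPM against 57.6 CPM, and Tpx2, the activator of Aurka, reached 262 CPM against 53.3 CPM.

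Condensins and other proteins of chromatin compaction were higher at 8 of 18 genes, with a median log2 ratio of 0.75. Against all other cells 6 were, without Smc2 and Hmgb2. The condensin subunits Smc2 and Smc4 stood at 280 CPM against 112 CPM and 294 CPM against 106 CPM, and Ncaph had a log2 ratio of 2.22. Mki67, which coats mitotic chromosomes, stood at 150 CPM against 26.8 CPM. Hmgb2 was abundant in both sets, at 1587 CPM against 635 CPM. The histone variant H2afz was the most abundant of the list and nearly even, at 3615 CPM against 3222 CPM.

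**Figure D2:**
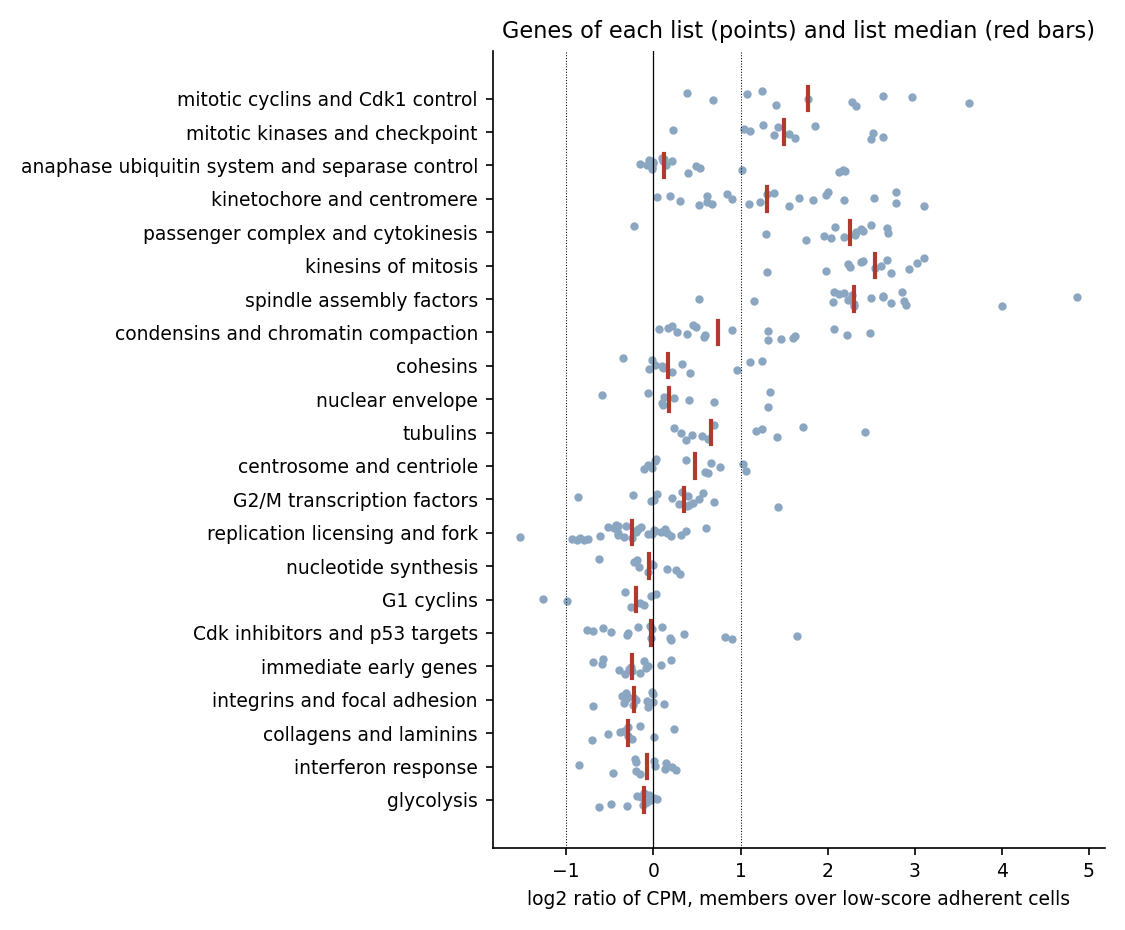
Log2 ratio of CPM between members and low-score adherent cells for each measured gene (points) of 22 lists, with the list's median as a red bar and dotted lines at 2-fold. Kinesins lie highest, with a median of 2.55, and the lists of matrix, adhesion and interferon genes lie near 0.

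Structures that mitosis takes apart or reuses moved less. Cohesins were higher at 2 of 12 genes (median log2 ratio 0.16), namely the acetyltransferase Esco2 (1.25) and sororin Cdca5 (1.11), and at none against all other cells. The nuclear envelope was higher at 2 of 10 (median 0.18), namely lamin B1 (Lmnb1) at 84.9 CPM against 34.0 CPM and Sun2, of the inner nuclear membrane, at 8.19 CPM against 3.23 CPM. Against all other cells Sun2 alone was past 2-fold, and with thinned cells Lmnb1 alone, of 9 measured. Lamin A (Lmna) was nearly even at 256 CPM against 239 CPM. Centrosome genes were higher at 2 of 12 (median 0.48), Stil (1.07) and Pcnt (1.02), both near the limit. Pcnt was under 2-fold in 4 of 23 alternative settings and Stil in 2, so that none was higher against all other cells, while 6 were per cell.

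Tubulins, the subunits of microtubules, were higher at 5 of 12 measured genes, with a median log2 ratio of 0.66, and none of the 12 was below 0. Tubb4b had the largest ratio, at 559 CPM against 104 CPM and a log2 ratio of 2.42 (2.35 to 2.50). Tubd1, a rare tubulin at 19.5 CPM against 5.91 CPM, followed with 1.72 (1.39 to 2.06). Tuba1c reached 1.42, Tubb6 1.25 and Tubb5 1.18. The most abundant one, Tuba1a, was nearly even at 1234 CPM against 953 CPM. Against all other cells 3 of the 12 were at least 2-fold higher, and per cell 8. Tubulin genes are close copies of each other, so the split of their reads is uncertain.

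Of 16 factors that control late cell cycle genes, 1 was at least 2-fold higher, and the median log2 ratio was 0.35. This was Foxm1, at 32.6 CPM against 12.1 CPM and a log2 ratio of 1.43 (1.19 to 1.67). It was under 2-fold against all other cells, and per cell 4 of the 16 were higher. The most abundant of the list, the MuvB subunit Rbbp4, stood at 202 CPM against 206 CPM. Nfyb, a subunit of the factor that binds CCAAT boxes, had a log2 ratio of 0.52.

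Genes of the preceding phases stayed mostly within 2-fold, in both directions. Among 31 genes of replication licensing and the fork, none was at least 2-fold higher and 1 was lower, with a median log2 ratio of -0.24. This was Cdc6, which loads the replicative helicase, at 5.84 CPM against 16.8 CPM. The log2 ratio was below 0 at 22 of the 31 genes and above 0 at 9, where the median of all genes was -0.08. Below 0 were the helicase subunits Mcm3 (-0.88) and Mcm6 (-0.85) and the sliding clamp Pcna (-0.41). Among those above 0 were the licensing inhibitor Gmnn (0.21), Rfc5 of the clamp loader (0.60) and the primase subunit Prim1 (0.38). Counted per cell, which shifts every gene alike, the list's median was 0.29 in place of -0.24 and that of all genes 0.45. On that scale no gene of the list was 2-fold lower. Ung, which removes uracil from DNA, was the lowest of all genes named, at 3.66 CPM against 24.7 CPM and a log2 ratio of -2.75 (-3.24 to -2.30). Enzymes of nucleotide synthesis were even, with none of 10 past 2-fold and a median of -0.05.

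Cyclins of G1 phase were lower at 1 of 8 genes, with a median log2 ratio of -0.20. Cyclin E2 (Ccne2) stood at 3.31 CPM against 7.98 CPM. Cyclin E1 (Ccne1) was just short of the limit, at 17.0 CPM against 33.9 CPM and a log2 ratio of -0.997. The abundant cyclin D1 (Ccnd1) was at 837 CPM against 997 CPM. Per cell, no gene of this list was 2-fold lower. Of 17 measured Cdk inhibitors and p53 targets, 1 was higher, Cdkn2d, an inhibitor of Cdk4 and Cdk6, at 165 CPM against 52.8 CPM. With members as the top 10%, or per cell, 3 of the 17 were higher. Cdkn1a (p21) had a log2 ratio of 0.20 and Cdkn2a, whose transcripts encode unlike proteins that 3′ ends cannot separate, -0.03.

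Beside these lists, the 15 largest ratios outside the score held genes of no list. Arl6ip1, a protein that shapes the endoplasmic reticulum, stood at 890 CPM against 128 CPM and a log2 ratio of 2.79 (2.73 to 2.86). The DNA helicase Pif1 stood at 25.4 CPM against 1.16 CPM, and Cdca2, which brings a phosphatase to chromatin, at 38.2 CPM against 5.10 CPM.

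The 15 smallest ratios were mostly of rare transcripts. The most abundant of them was Cited2, a coregulator of transcription, at 60.4 CPM against 163 CPM and a log2 ratio of -1.43 (-1.56 to -1.32). The growth factor Areg stood at 9.15 CPM against 24.8 CPM and was under 2-fold lower in 4 of 23 alternative settings. Over 10 bins of cells by score, its level was highest in bin 7, among the cells between, at 49.1 CPM. Further lower genes were the regulator of G protein signalling Rgs16 at 4.27 CPM against 11.4 CPM and periplakin (Ppl) at 2.70 CPM against 8.74 CPM. The F-box gene Fbxl20 and the prostaglandin synthase Ptgds had log2 ratios of -1.37 and -1.64. Cited2, Rgs16 and Fbxl20 were under 2-fold lower per cell, and Ptgds with thinned cells. Genes with provisional names made up 29 of all 78 lower genes. With cells thinned to 5000 UMIs before scoring, 32 of the 78 lower genes still had 100 UMIs and 18 of these were past 2-fold again, as were 164 of the 169 higher genes still measured.

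Lists outside the cell cycle stayed near the level of all genes. No gene was past 2-fold among 15 measured genes of integrins and focal adhesion (median log2 ratio -0.22), 10 of collagens and laminins (-0.30), 12 of the interferon response (-0.07), 14 of glycolysis (-0.11), 14 immediate early genes (-0.25) and 12 of glioma stem and lineage genes (-0.07). Nor was any among 6 metalloproteinases (-0.18), 3 purinergic receptors (-0.17) and 5 nuclear noncoding RNAs (-0.27). Of all measured genes, only 1.83% were at least 2-fold higher and 0.722% lower. Lists this short would hold few or none at that share, so their lack of such genes does not set them apart. Several lists leaned slightly lower, on a scale where the median of all 10800 measured genes was itself below 0, at -0.08. The log2 ratio was below 0 at 14 of the 15 integrin and focal adhesion genes, 12 of the 14 immediate early genes and all 6 metalloproteinases. In the interferon response it was below 0 at 6 genes and above at 6. Sox2, a factor of neural stem cells, stood at 215 CPM against 212 CPM, and vimentin (Vim) at 5439 CPM against 5851 CPM. A list of 14 measured genes that mark other adherent cells had a median of -0.38, and was drawn up with results of these cells known. None of it was past 2-fold, but 1 was 2-fold lower in several settings, thinned cells among them. Per cell, 1 of the glioma stem and lineage genes was 2-fold higher. The most abundant gene of the list that marks other adherent cells, the small heat shock protein Cryab, stood at 2403 CPM against 3307 CPM.

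Of the markers of other cell types, those of immune cells and vessels were at or near 0, while some neuron markers were measured. Immune markers summed to 7.58 CPM in members and 13.5 CPM in low-score cells, nearly all from Cd68, the 1 of 8 with enough UMIs to be measured, with Cd3e, Itgam and Tyrobp at 0. Vessel markers summed to 1.22 CPM and 1.57 CPM, with none of 8 measured, Cdh5, Kdr, Cldn5 and Vtn at 0 and Pecam1 the most abundant. Neuron markers summed to 58.3 CPM and 51.5 CPM, led by Map2, with 3 of 8 measured and Rbfox3, Snap25, Gad1 and Gad2 at 0.

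The cells were also ordered by score into 10 bins of equal size. Sums over bins cannot show whether single cells change gradually. Kinesins of mitosis summed to 57.4 CPM in the lowest bin, 734 CPM in the next to highest and 1006 CPM in the highest. Mitotic cyclins and Cdk1 partners went from 761 CPM to 3876 CPM. Replication genes took another course. They went from 1233 CPM in the lowest bin to 2331 CPM in bin 5 and were at 1511 CPM in the highest, and the S-phase genes likewise peaked in bin 5, at 648 CPM. The low-score cells, bins 1 to 5, therefore held both the lowest and the highest bin of the replication list, while the lowest bin of the S-phase genes was the highest by score, at 336 CPM.

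**Figure D3:**
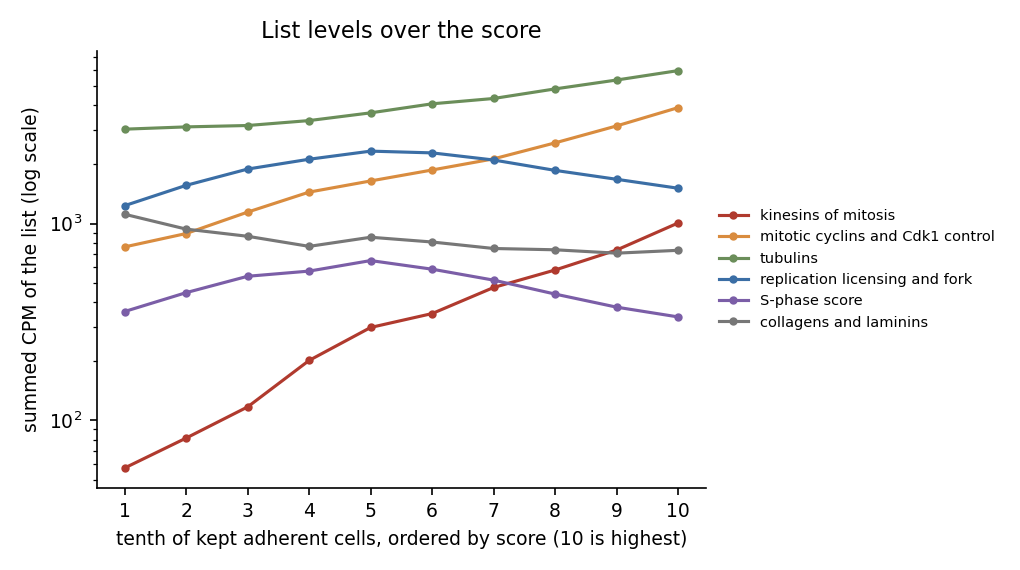
Summed CPM (log scale) of 6 lists in 10 bins of kept adherent cells ordered by score, with bin 10 the highest. Of the lists plotted, kinesins and mitotic cyclins climb throughout, the replication list peaks in bin 5 at 2331 CPM, and collagens and laminins go from 1114 CPM in the lowest bin to 731 CPM in the highest.

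The members were also ordered by score into 5 bins of 202. From the lowest to the highest, Ube2c went from 1485 CPM to 2849 CPM, Cdc20 from 349.9 CPM to 767 CPM and Cenpf from 336 CPM to 732 CPM, which the order by score sets in large part. Of what the score did not use, Arl6ip1 went from 611 CPM to 1282 CPM and the kinesins of mitosis from 652 CPM to 1124 CPM. The S-phase genes summed to 389 CPM and 311 CPM. Median depth was similar across these bins, at 10124 UMIs in the lowest and 10486 in the highest.

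Few members also ranked high by S-phase genes. A score made in the same way from Mcm3, Mcm5, Mcm6, Gins2, Pcna, Ung, Dtl and Hells placed 63 members in its own top 20%, which is 6.24% of either set (4.83% to 7.91%). The share was 9.63% with cells thinned to 5000 UMIs and 4.16% with members as the top 10%. By comparison, 24.2% of low-score cells and 22.1% of the cells between were in that set. With the shared cells left out, 947 members and 947 S-phase cells remained, with median depths of 10745 and 8329 UMIs. Between these sets, each chosen on its own genes, Ube2c stood at 2034 CPM and 399.6 CPM and Pcna at 134 CPM and 386 CPM. Of genes in neither score, Tubb4b stood at 561 CPM and 168 CPM. Hmgb2 was high in both sets, at 1581 CPM and 972 CPM. Arl6ip1 and Cdk1 had log2 ratios of 2.32 and 1.33 over S-phase cells. Most named genes of the mitosis lists were likewise higher in members, such as Nusap1 (2.60), Prc1 (1.50) and Birc5 (1.08). Some were close to even or lower, among them Melk (0.02), Kif15 (0.09), Tex14 (-0.15) and Zwint (-0.19).

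The same score gave 855 top cells of 4276 kept neurosphere cells, compared with 2138 cells of their bottom 50%. Of these neurosphere cells, 677 were over the adherent threshold, 15.8% (14.8% to 17.0%) against 20.0% of adherent cells. Thinned to 5000 UMIs, the shares were 16.0% and 21.7%. For Ube2c the ratio between the cultures was smaller in top cells than in low-score cells. Ube2c was at 2019 CPM in adherent members and 1594 CPM in neurosphere top cells, while the low-score cells held 196 CPM in the adherent and 30.1 CPM in the neurosphere culture. The log2 ratio of Ube2c was thus 3.36 in adherent and 5.73 in neurosphere cells. All 8 score genes and 113 of 123 genes of the mitosis lists had a smaller ratio in adherent cells. These differences between cultures were not tested, and the neurosphere cells were deeper, with top cells at 19090 UMIs and low-score cells at 9864 UMIs.

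**Figure D4:**
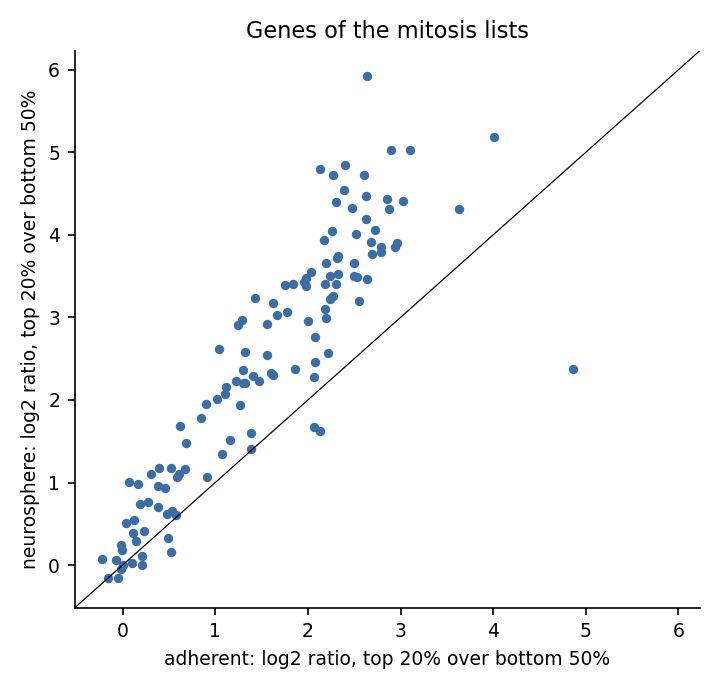
Log2 ratio between the top 20% and the bottom 50% by score for 123 genes of the mitosis lists, in adherent cells on the horizontal axis and neurosphere cells on the vertical axis, with the line of equal ratios. Of these genes 113 lie above the line, and Fam83d lies farthest below it, at 4.86 in adherent and 2.38 in neurosphere cells.

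In neurosphere cells 329 of 11632 genes were at least 2-fold higher (2.83%) and 766 at least 2-fold lower (6.59%). With a minimum of 500 UMIs per gene, 243 were higher and 243 lower. Among 10385 genes measured in both libraries, 170 were higher in both, which is 90.9% of the adherent and 54.3% of the neurosphere higher genes. Of the lower genes 32 were shared, 47.8% of the adherent and 7.64% of the neurosphere ones. No gene was at least 2-fold higher in one culture and 2-fold lower in the other. Replication genes had a median log2 ratio of -0.24 in adherent cells, where the median of all genes was -0.08, and 0.41 in neurosphere cells, where it was -0.15. Counted per cell, the adherent medians were 0.29 and 0.45. This scale shifts every gene alike, so their order could not change.

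The promoters of the higher genes were searched for elements known from late cell cycle genes. RefSeq promoters of the GRCm38.p6 build, 250 bases before to 50 after the start, were found for 156 of the 198 higher genes and 56 of the 78 lower ones. The cell cycle homology region (CHR) was searched as TTTGAA or TTTAAA and the CCAAT box as CCAAT, on both strands, where TTTAAA reads alike on either. Of 181 promoters of higher genes, 58.6% held a CHR match, against 23.9% of 67 promoters of lower genes, 19.4% of 10970 promoters of all measured genes and 27.6% of all 32841 promoters. For CCAAT the shares were 69.6%, 38.8%, 38.6% and 37.4%. Both elements occurred in 44.8% of promoters of higher genes and 7.90% of those of measured genes. A match is a stretch of letters and does not show that a factor binds there.

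Among the score genes and the 15 largest ratios, the 4 promoters with a CHR match closest to the start are printed to show how the elements lie. Kifc1 is at chr17:33890584-33890883, Cenpf at chr1:189688037-189688336 and Kif18b at chr11:102925075-102925374, all on the minus strand, and Aspm at chr1:139454523-139454822 on the plus strand. Sequences run 5′ to 3′ along the gene, and capitals mark the CHR and CCAAT letters, read on the other strand as TTCAAA or TTTAAA and as ATTGG.
Kifc1: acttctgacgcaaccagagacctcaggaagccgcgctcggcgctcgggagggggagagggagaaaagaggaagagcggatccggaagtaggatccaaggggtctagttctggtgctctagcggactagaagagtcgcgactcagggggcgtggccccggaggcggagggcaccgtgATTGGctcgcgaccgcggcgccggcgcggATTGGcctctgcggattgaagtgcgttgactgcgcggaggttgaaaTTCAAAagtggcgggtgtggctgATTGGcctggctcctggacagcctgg
Cenpf: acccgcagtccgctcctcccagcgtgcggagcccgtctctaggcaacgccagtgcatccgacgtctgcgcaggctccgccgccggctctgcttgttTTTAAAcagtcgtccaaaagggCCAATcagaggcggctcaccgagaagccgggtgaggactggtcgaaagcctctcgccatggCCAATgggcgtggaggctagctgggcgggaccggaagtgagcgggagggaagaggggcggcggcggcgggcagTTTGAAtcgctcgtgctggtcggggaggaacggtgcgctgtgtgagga
Kif18b: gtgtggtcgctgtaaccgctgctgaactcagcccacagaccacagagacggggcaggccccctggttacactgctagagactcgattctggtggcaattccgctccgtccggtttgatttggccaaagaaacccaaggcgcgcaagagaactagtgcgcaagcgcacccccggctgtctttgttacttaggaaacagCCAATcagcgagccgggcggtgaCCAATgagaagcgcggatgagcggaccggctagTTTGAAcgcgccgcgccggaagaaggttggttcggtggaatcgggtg
Aspm: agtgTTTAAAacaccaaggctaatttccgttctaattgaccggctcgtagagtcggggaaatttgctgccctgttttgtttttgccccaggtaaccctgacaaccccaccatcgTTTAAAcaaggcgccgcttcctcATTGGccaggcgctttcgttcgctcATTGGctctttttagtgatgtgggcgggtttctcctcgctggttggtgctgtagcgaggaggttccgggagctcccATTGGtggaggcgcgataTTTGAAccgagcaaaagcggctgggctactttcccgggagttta
In all 4 the CHR match nearest the start begins within 6 bases after it, which the choice of these promoters set. Among the other candidates it lay from 50 bases before the start, in Fam83d, to 17 after, in Aurka. Some, such as Nusap1 and Arl6ip1, had no CHR match. CCAAT matches of the 4 lie at several places in the window: 3 in Kifc1, 2 in Cenpf, 2 in Kif18b and 3 in Aspm.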

How the data were processed

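The authors deposited UMI counts per gene and cell for the called cells of both 10x 3′ libraries, made with Cell Ranger 7.0.1 and mm10 per the submitters' processing notes, and these counts are used here as deposited. Whether intronic reads were counted is not given in the sources used here. Mitochondrial (13) and ribosomal protein (101) genes were removed, and cells were kept at 1000 UMIs and 1250 genes, or 2250 genes in neurosphere cells. With the limits set on all genes first, 5073 adherent cells were kept. No doublet caller was run. Leaving out cells over the 95th percentile of UMIs was tried instead. UMIs were summed per set, with exact Poisson, conditional and binomial (Clopper-Pearson) intervals, in Python 3.11.15 with numpy 2.4.6, scipy 1.17.1 and pandas 2.3.3. TMM scaling used edgeR 4.0.16 in R 4.3.3, and plots matplotlib 3.10.9. Ratios and intervals were also run on simulated Poisson sums with planted changes. These sums held no variation between cells and no selection by score, so they do not test ratios between cells chosen by score. Members and lists were chosen with earlier results of these data known. Named genes were the 8 score genes, the 15 largest and 15 smallest log2 ratios with 1 CPM added among other genes with at least 100 UMIs, and from each list up to 4 genes with the most UMIs and those past 2-fold. Some genes outside this rule are given besides, among them Pkmyt1, Rfc5, Prim1 and Ccne1. Of the 15 largest ratios, 1 is not reported here. Promoters were printed for up to 4 of the score genes and 15 largest ratios, those with a CHR match closest to the start. Gene lists numbered 32. Lists, cells and scores under 23 other settings are compared in the closing part.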

Additional observations from a re-analysis of the deposited data

Results flagged for a closer look

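Some list sums moved in opposite directions in the 2 libraries between the top 20% and the bottom 50% of cells by score, with both counting intervals off 0. With 1 library per culture the difference was not tested. Adherent and neurosphere log2 ratios of summed CPM were -0.23 and 0.43 for replication genes (difference -0.66), -0.56 and 0.14 for the S-phase genes (-0.69), and -0.03 and 0.79 for nucleotide synthesis (-0.82). They were 0.06 and -0.54 for the interferon response (0.59), -0.01 and 0.06 for glycolysis (-0.07), 0.06 and -0.54 for nuclear noncoding RNAs (0.60), and 0.18 and -0.75 for neuron markers (0.93). Sums follow abundant genes, and the median log2 ratio over genes had the same sign in both libraries for the interferon response (-0.07 and -0.76) and nuclear noncoding RNAs (-0.27 and -0.51). For glycolysis it was -0.11 in adherent cells and even in neurosphere cells, with 7 genes above 0 and 7 below. Of the 5 noncoding RNAs measured in adherent cells, Malat1 alone was above 0, at 0.10. The direction also depends on the scale, as the adherent median of replication genes was -0.24 in CPM and 0.29 per cell.

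The 713 adherent cells removed by the limits, with a median of 301 UMIs, were used in no comparison. The score genes made up 1207 CPM of their UMIs (1100 to 1320), and 243 of these cells held at least 1 such UMI. Of the removed cells, 123 were over the score threshold of members, 0.287%. In a cell of 301 UMIs, 1 score UMI is enough to pass it, so this count does not show that the limits removed G2/M cells. In kept adherent cells the score genes gave 0.189% of UMIs, a larger share than in the removed cells.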

How the results depend on the processing

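Of 23 alternatives, 1 was chosen after seeing the data (UMIs per cell). The count of higher genes stayed within 1.5 times of 198 under 20 and that of lower genes within 1.5 times of 78 under 18. With a minimum of 500 UMIs per gene they were 129 and 7, with none 1351 and 3862 (3861 in a second count), and per cell 456 and 8. Lower genes numbered 161 with members as the top 10% and 188 with a minimum of 50 UMIs. In neurosphere cells a minimum of 500 UMIs gave 243 higher genes in place of 329 and 243 lower genes in place of 766. These minimums change which genes are counted, and the lower genes were mostly near the limit of depth. The median log2 ratio of the mitosis lists was 1.07 against all other cells and 2.16 per cell, and that of the replication list 0.29 per cell. The ratio of median UMIs was 1.39 against all other cells, 1.40 without Ube2c in the score and 1.41 with thinned cells. The share of members high in S-phase genes was 4.16% with the top 10%, 8.71% with the top 30% and 9.63% with thinned cells. Counting per cell shifts every gene alike, and put the median of all genes at 0.45 in place of -0.08. For the moves under other settings than this and the minimums the cause was not tested. No named gene past 2-fold changed sign, and 92 of 125 were past 2-fold the same way under every alternative that left them measured. No paired analysis was possible because each culture was 1 library.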
